A study of Mus musculus with 6 samples.

Results

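Caveolae are flask-shaped pits of the plasma membrane, and T-tubules are the membrane tubes that carry the action potential into a muscle fibre. The 9 genes described here encode proteins that build these membranes: the caveolins Cav1, Cav2 and Cav3, the cavins Cavin1, Cavin2, Cavin3 and Cavin4, the ATPase Ehd2 and the membrane-bending protein Bin1. They were taken by gene symbol from a table of counts for 43074 symbols. Of these symbols 17433 passed a filter on low counts and were tested, all 9 genes among them. The cells were C2C12, a wild-type line of mouse myoblasts that fuse into myotubes when serum is changed, and the cells at day 0 were untreated, in medium with fetal bovine serum. Cells at day 4 had spent 4 days in medium with horse serum and either DMSO, the vehicle, or 1 mM 4-phenylbutyric acid (4-PBA), an aromatic fatty acid used to ease protein folding and to inhibit histone deacetylases. Each of these 3 groups had 2 libraries of DNase-treated total RNA. All came from a single cell line in culture, without nerve or fibre architecture, and carried 1 batch number. The day 0 cells had no vehicle, so effects of time, medium and DMSO cannot be told apart.

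Caveolins are hairpin proteins that insert in the inner leaflet of the membrane and assemble into the caveolar bulb, and cavins are cytoplasmic proteins that coat it. Cav1 and Cav2 serve in most cell types and Cav3 in muscle, where caveolae are also thought to help form T-tubules. Bin1, also called amphiphysin 2, bends membrane into tubes through its BAR domain and is best known in muscle for its part in T-tubule growth.

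Promoters are shown for the caveolins and for Cavin4, because these genes moved most in opposite directions at day 4 and can be compared letter by letter. RefSeq promoters (build GRCm38.p6) were used for 7 of the 9 genes. Each sequence is the 250 bases before the annotated start, 5′ to 3′ on the gene's strand, with capitals for each E-box, the motif CANNTG, whose reverse complement is the same motif and which is the kind of site that MyoD family factors bind. The windows are chr6:112459255-112459504 for Cav3, chr4:48663264-48663513 for Cavin4, chr6:17306085-17306334 for the first of 2 Cav1 entries and chr6:17280935-17281184 for Cav2, all on the plus strand.
Cav3: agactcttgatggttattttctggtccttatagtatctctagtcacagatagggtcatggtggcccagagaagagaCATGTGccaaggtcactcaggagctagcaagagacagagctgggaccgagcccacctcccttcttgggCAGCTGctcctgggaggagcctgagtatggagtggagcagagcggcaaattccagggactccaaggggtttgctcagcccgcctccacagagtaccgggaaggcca
Cavin4: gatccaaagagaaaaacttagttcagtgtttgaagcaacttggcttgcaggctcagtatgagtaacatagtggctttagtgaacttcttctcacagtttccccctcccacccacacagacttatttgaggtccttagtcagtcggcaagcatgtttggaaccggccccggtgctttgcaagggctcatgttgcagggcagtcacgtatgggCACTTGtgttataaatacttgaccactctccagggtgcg
Cav1: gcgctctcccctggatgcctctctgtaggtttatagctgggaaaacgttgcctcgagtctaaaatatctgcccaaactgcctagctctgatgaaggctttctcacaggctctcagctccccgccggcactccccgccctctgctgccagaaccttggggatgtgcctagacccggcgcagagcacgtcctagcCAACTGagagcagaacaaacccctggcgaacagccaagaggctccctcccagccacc
Cav2: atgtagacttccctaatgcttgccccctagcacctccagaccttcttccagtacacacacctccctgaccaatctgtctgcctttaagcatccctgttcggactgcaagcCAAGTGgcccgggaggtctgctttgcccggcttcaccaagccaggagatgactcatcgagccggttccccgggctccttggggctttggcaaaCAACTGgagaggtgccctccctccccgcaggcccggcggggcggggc

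An E-box lay in all 4 of these windows, and in 66.2% of 32851 promoters of the same length, so its presence did not set the rising genes apart from the falling ones. The Cav3 window held 2 E-boxes, 1 of them the palindrome CAGCTG, a form that starts 106 bases before the transcript and occurred in 13% of promoters. Ehd2 held CAGCTG as well, 204 bases before its start. In Cavin4 the E-box CACTTG began 39 bases and the motif TATAAA 30 bases before the start. TATAAA, searched on both strands, occurred in 12.4% of promoters and also in the Cav1 window, as its reverse complement. Cavin1 and Cavin2 had no E-box in this window. None of the 7 genes had a MEF2 box (2.92% of promoters) or a CArG box (1.47%). A match is a description of the letters and not of binding.

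Total counts ran from 47908926 to 74697397 per library, and libraries of the same group differed by more than counting error. Levels are CPM, counts per 1000000 counts of a library after TMM scaling, and every pair of values below is replicates 1 and 2. Changes are log2 fold changes from edgeR's quasi-likelihood test with their standard error (SE), and a gene was called when its p-value, adjusted over all tested genes by Benjamini-Hochberg, was under 0.05. The muscle identity of the cells was checked with 10 myoblast and myotube markers. Their summed level was 1106 to 1112 CPM at day 0, 6809 to 7054 CPM with DMSO and 6568 to 6672 CPM with 4-PBA. Des made up most of it at day 0 (881 CPM), and Des (2212 CPM), Myh3 (2017 CPM) and Acta1 (1727 CPM) with DMSO. Between day 0 and DMSO 9 of the 10 were called higher and 1, Myf5, lower (log2 fold change -1.14). Over all tested genes 33.8% were called higher and 32.6% lower. Endothelial cells and adipocytes are rich in caveolae. The 6 endothelial markers summed to at most 3.03 CPM in any library. Pparg made up nearly all of the adipocyte sum of 7.09 to 19.3 CPM, with the other 5 adipocyte markers at or near 0.

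Differentiation without the drug was compared first. All 9 genes changed between day 0 and day 4 with DMSO, 6 higher and 3 lower. The background was high, since edgeR called 66.3% of all tested genes, 33.8% higher and 32.6% lower. The count of calls is therefore not particular to these genes, and the sizes carry the description. Cav3, Cavin4, Bin1 and Cavin2 rose about 2-fold or more, Cav1 and Cav2 fell by at least that much, and Cavin1, Cavin3 and Ehd2 moved by less than 15%. In whole cultures, fewer cells of a type and less RNA per cell cannot be told apart.

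**Figure D1:**
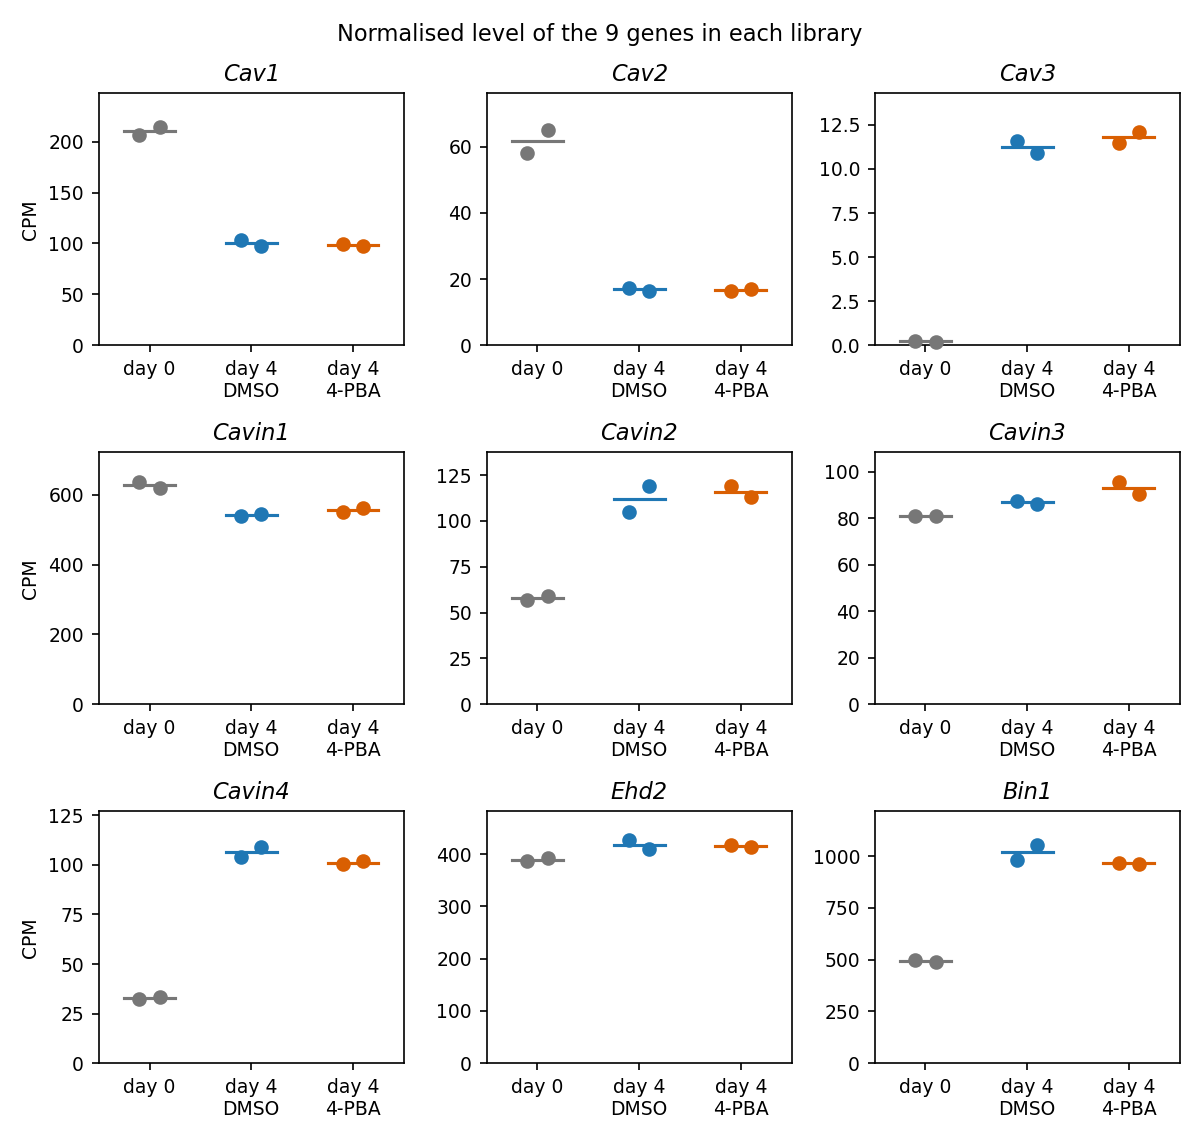
Level of each gene in each library, in CPM on a linear axis from 0, with 1 panel per gene; points are the 2 libraries of a group and the line is their mean. Cav3, Cavin2, Cavin4 and Bin1 stand higher in all 4 day 4 libraries than at day 0, Cav1 and Cav2 lower, and the DMSO and 4-PBA points lie close together.

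Cav3, the muscle caveolin, stood at 0.247 and 0.199 CPM at day 0, 11.6 and 10.9 CPM in DMSO, and 11.5 and 12.1 CPM in 4-PBA. The day 0 values rested on 12 and 14 counts, against 715 to 812 counts in each day 4 library. All day 4 libraries were far above both day 0 libraries. The mean rose from 0.223 ± 0.0336 to 11.3 ± 0.440 CPM (SD, n = 2), which is 50.9-fold (log2 fold change 5.67, SE 0.184, adjusted p 1.43e-24).

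Cav1, the scaffold of caveolae outside muscle, was at 207 and 214 CPM at day 0, 103 and 97.7 CPM in DMSO, and 99.3 and 97.9 CPM in 4-PBA. The day 4 libraries stood at less than 50% of day 0 and did not overlap it. From 211 ± 4.70 to 101 ± 4.10 CPM with DMSO, the fall was 2.09-fold (log2 fold change -1.07, SE 0.0359, adjusted p 4.15e-24). Cav2, which needs Cav1 to reach the cell surface, had 58.1 and 65.2 CPM at day 0, 17.2 and 16.5 CPM in DMSO, and 16.4 and 17.0 CPM in 4-PBA. It fell further than Cav1, from 61.7 ± 5.04 to 16.9 ± 0.461 CPM, or 3.67-fold (log2 fold change -1.87, SE 0.0627, adjusted p 3.47e-24). The difference between the 2 falls was not tested.

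Cav1 and Cav2 are neighbours on the chromosome in GENCODE M21, between Tes and Met. Both flanking genes also fell with DMSO: Tes, a focal adhesion protein, from 234 ± 2.98 to 119.6 ± 7.41 CPM (log2 fold change -0.97), and Met, the receptor of hepatocyte growth factor, from 151 ± 0.716 to 53.8 ± 3.03 CPM (log2 fold change -1.49). All 4 genes of this stretch were lower at day 4, beside 32.6% of all tested genes called lower with DMSO. Tes lies 175356 bases from Cav2 and Met 122347 bases from Cav1. A shared cause was not tested. The neighbours of Cav3, Oxtr and Ssu2, had 0 to 4 counts in each library and could not be compared. Of the neighbours of Cavin4, Tmeff1 fell from 35.1 ± 1.94 to 24.8 ± 0.143 CPM (log2 fold change -0.50), and Plppr1 had 4 to 10 counts in each library. The neighbours of Cavin2 went opposite ways: Tmeff2 rose (log2 fold change 0.85) and Nabp1 fell (-0.72). Both neighbours of Cavin1, Stat3 (1.12) and Atp6v0a1 (0.45), rose while Cavin1 fell.

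Levels of different genes were compared per kilobase of exon. Summed over the 3 caveolins, the level fell from 79.8 CPM per kilobase at day 0 to 44.0 with DMSO and 43.8 with 4-PBA. Cav1 remained the main caveolin, at 76.6% ± 1.02 of the sum at day 0, 66.4% ± 0.125 with DMSO and 65.3% ± 0.907 with 4-PBA (SD, n = 2). The share of Cav3 went from 0.242% ± 0.0450 at day 0 to 22.1% ± 0.00645 with DMSO and 23.2% ± 0.661 with 4-PBA. That of Cav2 went from 23.2% ± 1.07 to 11.5% ± 0.132 and 11.4% ± 0.246. At day 4 Cav3 thus stood above Cav2 per kilobase, at 9.73 ± 0.381 against 5.05 ± 0.138 CPM per kilobase with DMSO. The size of this share depended on the gene length used. Divided by coding length, Cav3 was 10.0% of the sum with DMSO and Cav2 14.0%, so that the order of these genes turned. The fall in the share of Cav1 also depended on the length chosen. By longest transcript this share fell from 77.1% in untreated cells to 69.7% in DMSO and 68.8% in 4-PBA. By coding length it stayed nearly level, at 75.6%, 76.0% and 75.4% in the same order. Undivided by length, it was 77.3%, 78.2% and 77.6%.

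**Figure D2:**
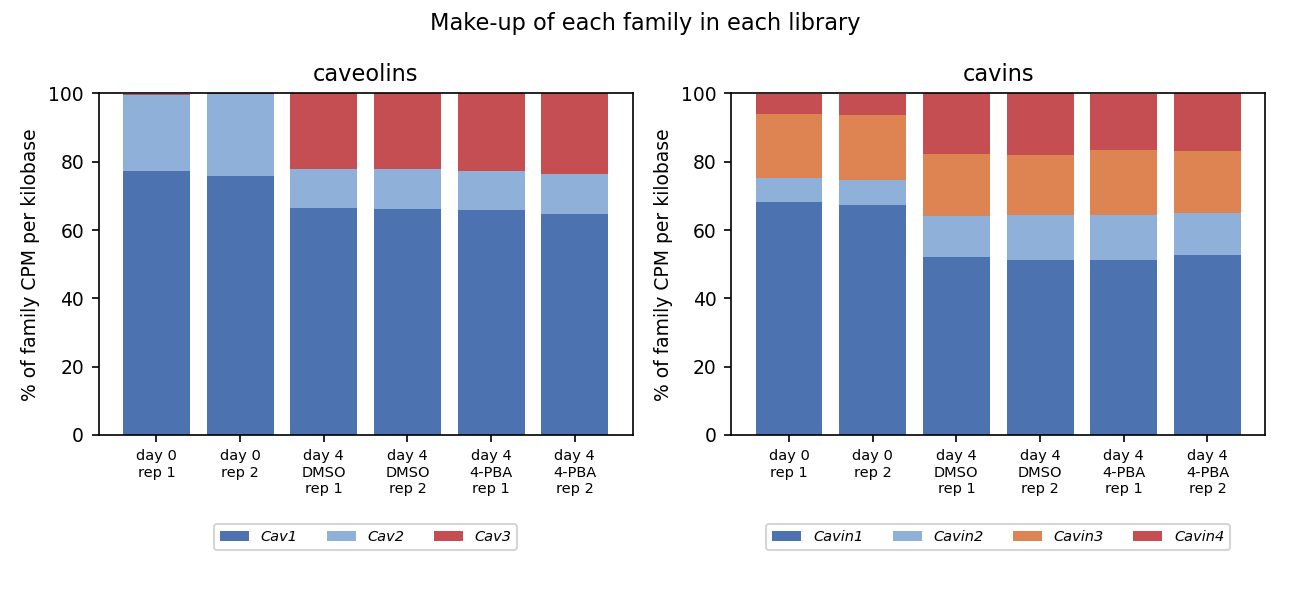
Share of each gene in the summed CPM per kilobase of the 3 caveolins (left) and of the 4 cavins (right), as stacked bars from 0 to 100%, 1 bar per library. Cav3 is hardly visible at day 0 and takes 22.1% to 23.7% at day 4, while Cavin4 goes from 6.03% and 6.34% at day 0 to between 16.4% and 18.0%.

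Cavin1, without which caveolae do not form, was the most abundant cavin in all libraries, at 636 and 619.7 CPM at day 0, 538 and 545 CPM in DMSO, and 549.7 and 561 CPM in 4-PBA. The day 4 values lay below both day 0 values by a small margin. From 628 ± 11.7 to 541 ± 4.52 CPM with DMSO, it fell by 13.8% (log2 fold change -0.21, SE 0.0285, adjusted p 3.92e-08). Cavin2, which shapes caveolae, rose from 56.9 and 58.8 CPM at day 0 to 105 and 119 CPM in DMSO and 119 and 113 CPM in 4-PBA. Its mean went from 57.9 ± 1.32 to 112 ± 10.2 CPM with DMSO, a 1.93-fold rise (log2 fold change 0.95, SE 0.0514, adjusted p 2.60e-12).

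Cavin3, a cavin that binds protein kinase C delta, was at 81.1 and 80.8 CPM at day 0, 87.6 and 86.2 CPM in DMSO, and 95.5 and 90.2 CPM in 4-PBA. The 3 groups did not overlap, but the steps were small. With DMSO it rose by 7.39% (log2 fold change 0.10, SE 0.0399, adjusted p 0.0233). This call did not hold with library size only (adjusted p 0.0971), in DESeq2 (0.0769), or without day 0 replicate 1 (0.0941), day 0 replicate 2 (0.0962) or DMSO replicate 1 (0.0612). In GENCODE M21, 22.5% of the exon length of Cavin3 is shared with an opposite-strand gene, and whether counting used the strand is not given in the sources used here.

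Cavin4, the cavin of heart and skeletal muscle, had 32.3 and 33.4 CPM at day 0, 104 and 109 CPM in DMSO, and 100.4 and 102 CPM in 4-PBA. Every day 4 library stood above day 0 by about the same amount. The rise with DMSO, from 32.9 ± 0.837 to 107 ± 3.51 CPM, was 3.25-fold (log2 fold change 1.70, SE 0.0433, adjusted p 1.15e-27). Summed over the 4 cavins, the level per kilobase was 259 CPM at day 0, 292 with DMSO and 298 with 4-PBA. Cavin4 made up 6.18% ± 0.218 of it at day 0, 17.8% ± 0.237 with DMSO and 16.5% ± 0.226 with 4-PBA. Cavin1 went from 67.7% ± 0.593 to 51.7% ± 0.581 and 52.0% ± 0.921. The share of the muscle member was thus larger at day 4 in both families, while the summed level was higher in the cavins and lower in the caveolins.

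Ehd2, an ATPase at the neck of caveolae that holds them at the surface, was nearly level: 387 and 392 CPM at day 0, 426 and 409.8 CPM in DMSO, and 418 and 414 CPM in 4-PBA. The mean was 389.5 ± 4.01 CPM at day 0 and 418 ± 11.5 CPM with DMSO, a rise of 7.29% (log2 fold change 0.10, SE 0.0296, adjusted p 0.00300). Without day 0 replicate 1 the adjusted p was 0.0633.

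Bin1 was the most abundant of the 9 genes at day 4 per kilobase. It had 498 and 489.8 CPM at day 0, 984 and 1053 CPM in DMSO, and 967 and 963 CPM in 4-PBA. All day 4 libraries stood about 2-fold above day 0. From 494 ± 5.94 to 1018 ± 48.7 CPM with DMSO, the rise was 2.06-fold (log2 fold change 1.04, SE 0.0301, adjusted p 8.27e-26). The counts are per gene and do not separate the muscle splice form of Bin1 from others, and 6.22% of its exon length is shared with an opposite-strand gene.

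Per kilobase the order at day 0 was Cavin1 (175 ± 3.25 CPM per kilobase), Bin1 (120.0 ± 1.44), Ehd2 (76.1 ± 0.784), Cav1 (61.1 ± 1.36), Cavin3 (48.7 ± 0.125), Cavin2 (18.9 ± 0.432), Cav2 (18.5 ± 1.51), Cavin4 (16.0 ± 0.407) and Cav3 (0.193 ± 0.0290). Cavin2 and Cav2 did not differ beyond their spread. With DMSO the order was Bin1 (247 ± 11.8), Cavin1 (151 ± 1.26), Ehd2 (81.7 ± 2.25), Cavin3 (52.3 ± 0.604), Cavin4 (52.1 ± 1.71), Cavin2 (36.6 ± 3.35), Cav1 (29.2 ± 1.19), Cav3 (9.73 ± 0.381) and Cav2 (5.05 ± 0.138). Cavin3 and Cavin4 did not differ beyond their spread. With 4-PBA the order was the same, from Bin1 at 234 ± 0.633 and Cavin1 at 155 ± 2.31 down to Cav3 at 10.2 ± 0.333 and Cav2 at 5.01 ± 0.129, and Cavin3 (55.9 ± 2.24) stood above Cavin4 (49.3 ± 0.536). The order depends on the gene length used. By coding length Cav1 took place 2 at day 0 and place 4 with DMSO, at 394 and 188 CPM per kilobase, against places 4 and 7 by exon length. By longest transcript Cav1 took places 3 and 6, and Bin1 (184 CPM per kilobase) stood above Cavin1 (179.9) at day 0. By coding length Cavin3 (111) stood above Cavin4 (98.5) with DMSO.

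Genes with the pattern most like Cav3 and Cav1 were sought among 10680 others with a mean of at least 5 CPM, by the root mean square distance of centred log2 CPM over the 6 libraries. For Cav3 they were Arpp21 (distance 0.0656), the skeletal actin gene Acta1 (0.0997) and the M-band gene Myom3 (0.101). For Cav1 they were Ugdh (0.0213), Nup160 (0.0220) and Mlkl (0.0271). The distances describe these 6 libraries, in which day 0 against day 4 is the main contrast.

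Other genes of the same membranes were taken from a pair of lists chosen for function, with earlier results of these data known. Of 15 genes whose proteins act beside caveolae, 12 were higher and 1 was lower with DMSO, beside 33.8% and 32.6% of all tested genes. Their median log2 fold change was 0.53, against 0.023 over all tested genes. The 1 lower gene was Ehd1, an endocytic relative of Ehd2, from 215 ± 5.15 to 183 ± 10.8 CPM (log2 fold change -0.23), while its relatives Ehd3 (0.83) and Ehd4 (0.21) rose. Pacsin3, the F-BAR protein of muscle caveolae, rose from 46.7 ± 1.35 to 112 ± 3.36 CPM (log2 fold change 1.26). The widely expressed Pacsin2 (0.40) and the membrane-cutting GTPase Dnm2 (0.14) rose less in size.

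Of 35 T-tubule and triad genes 34 were tested, and 27 were higher and 6 lower with DMSO, beside 33.8% and 32.6% of all tested genes, with a median log2 fold change of 1.65. The gene left out was Amph, the neural relative of Bin1, with 1 to 9 counts in each library. Cacna1s, the voltage sensor of the T-tubule, rose from 2.32 ± 0.141 to 140.1 ± 4.45 CPM (log2 fold change 5.90). Ryr1, the calcium release channel that faces it, rose from 37.6 ± 0.706 to 519 ± 15.6 CPM (3.79). The junctophilins that tether the membranes of the triad rose alike, Jph1 by a log2 fold change of 1.83 and Jph2 by 1.84. The membrane repair genes Dysf (2.48) and Trim72 (6.14) rose, as did the phosphoinositide phosphatase gene Mtm1 (1.27) and Bves (0.56), whose product binds caveolin 3. The 6 lower genes, named after their values were seen, were the membrane repair annexins Anxa2 (-0.78) and Anxa1 (-0.21), the phosphoinositide phosphatases Mtmr14 (-0.33) and Mtmr2 (-0.15), the potassium channel gene Kcnj2 (-1.33) and Asph (-0.087), whose call was lost in 7 of the 15 alternatives (adjusted p 0.00749 to 0.400). The repair gene Myof was not called (-0.046, adjusted p 0.153). Exons of some of these genes share bases with an opposite-strand gene of GENCODE M21. The share of exon length was 27.6% for Trim72, 20% for Cacna1s and 14.3% for Asph with Clvs1. It was 3.88% for Dnm2, 2.63% for Anxa2, 0.971% for Pacsin3 and 0.68% for Jph1. Dysf and Ryr1 shared at most 4.23% and 3.96% with any 1 such gene.

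Marker sums of other cell states and types moved with these changes. Over 8 cycling markers the summed level was 2477 to 2522 CPM at day 0 and 664 to 756 CPM with DMSO. All 8 were called lower with DMSO, beside 32.6% of all tested genes. Over 5 fibroblast markers the sum rose from 22.5 to 23.1 CPM at day 0 to 290.0 to 315 CPM with DMSO, nearly all of it Dcn. Called higher were Dcn (log2 fold change 5.11), Pi16 (4.75), Lum (5.37) and Dpt (1.62), beside 33.8% of all tested genes. Lum and Dpt stayed low with DMSO, at 0.767 and 1.47 CPM. Pdgfra of the same list was called lower (-0.32). The part of these cycling and fibroblast markers in the changes of the 9 genes was not tested.

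The comparison of 4-PBA with DMSO asked whether the drug moved these genes at day 4. None of the 9 genes was called, against a background of 4.90% of tested genes, 2.13% higher and 2.78% lower. At an unadjusted p under 0.05 there were 2 (Cavin3 and Bin1), and DESeq2 and limma-voom also called 0. The log2 fold changes lay between -0.079 (Cavin4) and 0.095 (Cavin3), with a median of -0.0072, against 0.0021 over all genes. A miss of the threshold does not show equal levels, so the 95% confidence intervals of the log2 fold change are given. They were -0.13 to 0.27 for Cav3, -0.10 to 0.046 for Cav1 and -0.15 to 0.13 for Cav2.

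Among the cavins the interval was -0.021 to 0.095 for Cavin1 and -0.055 to 0.15 for Cavin2. Cavin3 stood higher in both 4-PBA libraries than in both DMSO libraries, with a log2 fold change of 0.095 (interval 0.015 to 0.18, adjusted p 0.189). Cavin4 stood lower in both, at 101 ± 1.10 against 107 ± 3.51 CPM (log2 fold change -0.079, interval -0.16 to 0.0017, adjusted p 0.314). Ehd2 had an interval of -0.067 to 0.053. Bin1 was lower in both 4-PBA libraries, at 965 ± 2.61 against 1018 ± 48.7 CPM (log2 fold change -0.077, interval -0.14 to -0.017, adjusted p 0.142).

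The DMSO replicates decided a pair of these values. Without DMSO replicate 1, Bin1 was called lower with 4-PBA (log2 fold change -0.13, adjusted p 3.27e-04), and without DMSO replicate 2 its value was -0.027 (the adjusted p over its alternatives ran from 3.27e-04 to 0.722). Cavin2 was called higher without DMSO replicate 2 (log2 fold change 0.15, adjusted p 0.0246) and was at -0.042 without DMSO replicate 1. Either difference is thus no larger than the spread between the DMSO libraries.

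**Figure D3:**
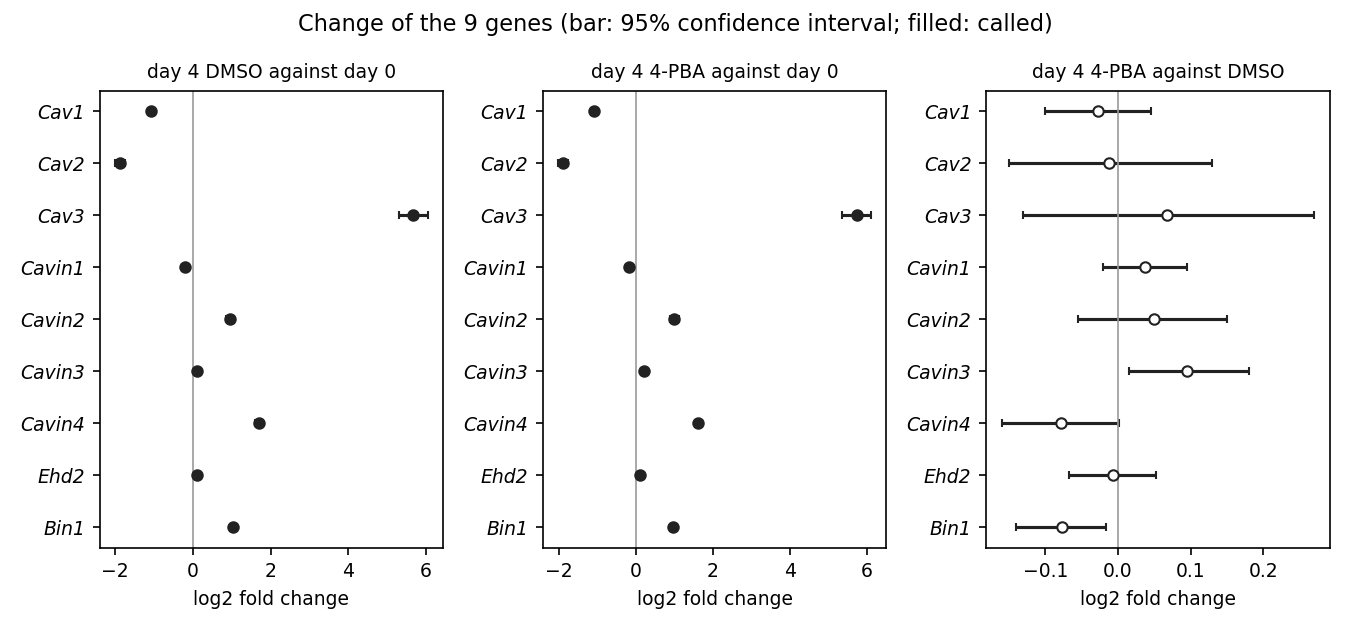
Log2 fold change of each gene with its 95% confidence interval, for DMSO against day 0, 4-PBA against day 0 and 4-PBA against DMSO; filled points were called, and the horizontal scales of the 3 panels differ. All 9 genes are filled in the first 2 panels and none in the third, where the points lie between -0.079 and 0.095.

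The companion lists differed in their counts under 4-PBA. At an unadjusted p under 0.05 there were 2 of the 15 caveolar neighbours. After adjustment edgeR, DESeq2 and limma-voom called 0 of the 15 between 4-PBA and DMSO, beside 4.90% of all tested genes in edgeR. A list of 15 holds few calls at that share, so a count of 0 does not set it apart. Without DMSO replicate 2 the count was 2, and with no filter on low counts 1. Of the 34 T-tubule and triad genes 8 were called, all lower, beside 2.78% of all tested genes called lower. The median log2 fold change of this list was -0.071, and no test of the list was made. The list was chosen with earlier results of these data known, so its count is a description only.

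Casq1, the calcium-binding protein of the triad's store, was at 20.6 and 21.3 CPM in DMSO and 13.3 and 12.3 CPM in 4-PBA (log2 fold change -0.71, adjusted p 8.53e-07). It was the largest of the 8 falls. Ryr1 had 508 and 529.7 CPM in DMSO and 437 and 436 CPM in 4-PBA (-0.25, adjusted p 1.31e-06). The DMSO and 4-PBA libraries did not overlap for either gene, and both calls held in all 15 alternatives.

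Another 5 of the called genes serve the T-tubule calcium channel or membrane repair: the channel subunits Cacna1s (log2 fold change -0.16), Cacnb1 (-0.19) and Cacng1 (-0.18), the channel adaptor Stac3 (-0.18) and the repair gene Trim72 (-0.17), with adjusted p from 8.49e-04 to 0.0476. These calls were less firm. Without 4-PBA replicate 1 the list of companions kept 3 calls, losing Cacna1s (adjusted p 0.201), Cacnb1 (0.0755), Cacng1 (0.0760), Stac3 (0.201) and Trim72 (0.170). Without 4-PBA replicate 2 it had 5, and Cacna1s (0.0824), Trim72 (0.114) and Stac3 (0.332) were lost. Cacna1s was also lost without DMSO replicate 2 (0.0941), and Stac3 without any 1 of the 6 libraries. Stac3 lost its call in 11 of the 15 alternatives, among them the DESeq2 Wald test (0.0959), DESeq2 size factors (0.0526), library size only (0.0630) and the replicate block (0.0617). Exons of Casq1 (8% of exon length) and Cacnb1 (1.77%) also share bases with an opposite-strand gene.

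**Figure D4:**
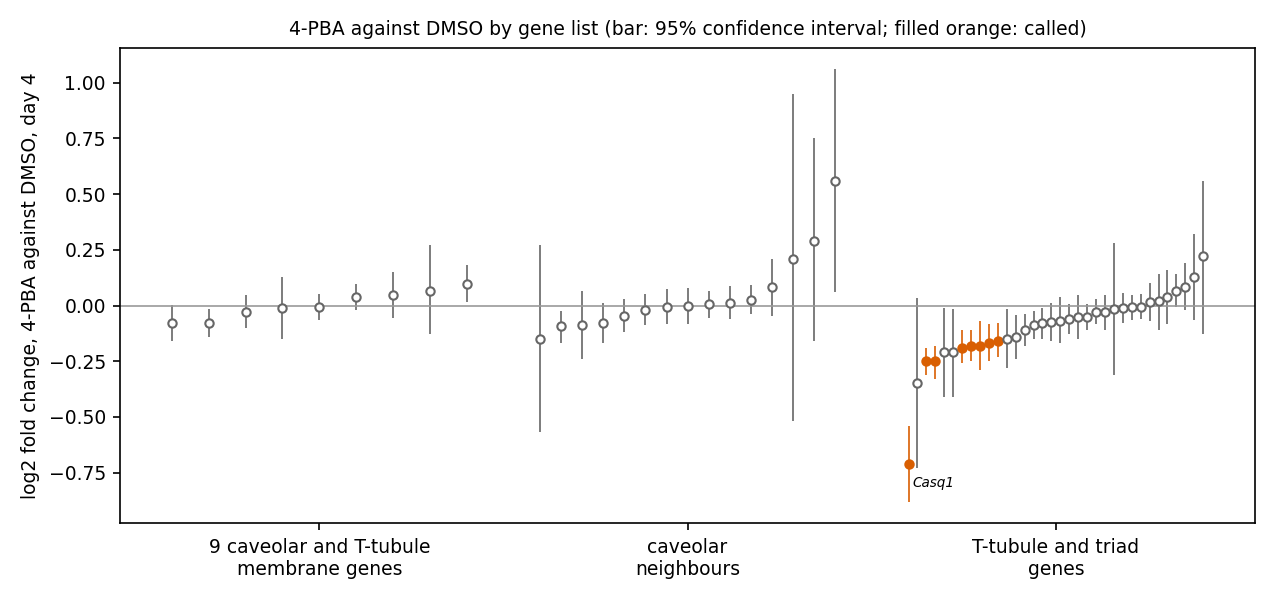
Log2 fold change between 4-PBA and DMSO at day 4, with its 95% confidence interval, for the 9 genes, 15 caveolar neighbours and 34 T-tubule and triad genes, sorted within each list; filled orange points were called. Only the T-tubule and triad list holds filled points, 8 in number and all below 0, with Casq1 lowest.

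Other companions named for their role were not called between 4-PBA and DMSO. Jph1 (log2 fold change -0.052), Jph2 (-0.079), Dysf (-0.14), Mtm1 (-0.21), Pacsin3 (-0.0061), Pacsin2 (0.0060), Dnm2 (-0.018), Ehd1 (-0.045), Ehd3 (0.084), Ehd4 (0.026) and Bves (0.065) had adjusted p from 0.0884 to 0.965. Jph2 was called lower without DMSO replicate 1 (-0.12, adjusted p 0.00976) and Bves higher without DMSO replicate 2 (0.11, adjusted p 0.0328). Beside the falls of triad genes, the cycling markers summed to 808 to 819.7 CPM with 4-PBA against 664 to 756 CPM with DMSO. Of the 8 cycling markers 3 were called higher, beside 2.13% of all tested genes. Muscle markers summed to 6568 to 6672 CPM against 6809 to 7054 CPM. Called lower were 4 of 10, beside 2.78% of all tested genes: Mymx (log2 fold change -0.35), Mymk (-0.17), Des (-0.11) and Acta1 (-0.094). The calls of Mymk, Des and Acta1 were lost without 4-PBA replicate 1 (adjusted p 0.142, 0.242 and 0.461) or 4-PBA replicate 2 (0.0940, 0.172 and 0.229), and those of Mymk (0.0909) and Acta1 (0.136) also without DMSO replicate 2. Acta1 was lost without day 0 replicate 1 (0.0924) or 2 (0.0872) as well. Of the cycling calls, Rrm2 was lost without DMSO replicate 2 (0.0901), 4-PBA replicate 1 (0.175) or 4-PBA replicate 2 (0.123), and Mcm2 without 4-PBA replicate 2 (0.173). The call of Mymx held in all 15 alternatives. Their part in the falls was not tested.

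Against day 0 the cells with 4-PBA showed the changes of differentiation with the drug present. This comparison shares its day 0 libraries with the one for DMSO, so the values are set side by side and their likeness is no result. All 9 genes were called, 6 higher and 3 lower, beside 65.6% of tested genes, 33.2% higher and 32.4% lower. The log2 fold change with 4-PBA and with DMSO was 5.74 and 5.67 for Cav3, -1.09 and -1.07 for Cav1, and -1.89 and -1.87 for Cav2. It was -0.18 and -0.21 for Cavin1, 1.00 and 0.95 for Cavin2, 0.20 and 0.10 for Cavin3, and 1.62 and 1.70 for Cavin4. For Ehd2 the values were 0.094 and 0.10, and for Bin1 0.97 and 1.04. Cavin3, which was not firm with DMSO, was called with 4-PBA at an adjusted p of 4.74e-05, and at 0.00646 or lower in all 15 alternatives. Ehd2 (adjusted p 0.00565) lost its call without day 0 replicate 1 (0.0874) or 4-PBA replicate 1 (0.0564). Of the 49 tested companions 38 were higher and 8 lower with 4-PBA, against 39 and 7 with DMSO.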

How the data were processed

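The authors deposited raw counts per gene symbol, 1 column per library, neither normalised nor pooled. Libraries were directional, per the labels' protocols. The build was GRCm39, per the submitters' processing notes. The aligner, the counter and the use of strand are not given in the sources used here.

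Groups were taken from the labels, which do not say that replicates were separate cultures, so p-values measure only the spread between these libraries. Counts were analysed with edgeR 4.0.16 (R 4.3.3): filterByExpr by group, TMM scaling, estimateDisp, and robust glmQLFit of 1 model over all 6 libraries, with 3 residual degrees of freedom and median prior degrees of freedom of 30.4. The quasi-likelihood F test was adjusted over all 17433 genes. With 2 libraries against 2 an exact permutation test cannot go below 0.333, so the tests rest on a spread shared across genes. The common coefficient of variation between replicates was 3.74%. Counting error adds to it most for Cav3 and least for the abundant Bin1, Cavin1 and Ehd2. SE is the log2 fold change divided by the square root of F. Length (GENCODE M21, GRCm38) is total exon length per gene and matched 36556 symbols. Promoter sequences are from RefSeq (GRCm38.p6).

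The members, companion lists, markers and naming rule were chosen with earlier results of these data known. Named genes were all 9 members, 15 companions picked for role, every companion called between 4-PBA and DMSO (1 of them is counted but not reported here), the nearest protein-coding neighbours of the members (described where a result turned on them) and the 3 genes most like Cav3 and Cav1. In the lists, Popdc1 appears under its table symbol Bves. Alternatives were other scalings, filters, DESeq2 1.42.0, limma-voom (limma 3.58.1), fits of 4 libraries, a replicate block, a stricter threshold, left-out libraries and other gene lengths. The test was checked on simulated data, where it recovered most changed genes and the share of false calls lay above the nominal level in most simulated sets, and well above it in 1. Figures were drawn with matplotlib 3.10.9 in Python 3.11.15.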

Additional observations from a re-analysis of the deposited data

How the results depend on the processing

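Each test was repeated under 15 alternatives. In the comparisons of day 4 with day 0 no value of the 9 genes changed direction, and Cavin3 and Ehd2 were the genes that lost a call in some of them; Cavin3 with DMSO also lost it at an adjusted p under 0.01. Of 46 called companions, 1 lost its call in some alternatives between DMSO and day 0 (Asph) and 4 between 4-PBA and day 0 (Asph, Dnm2, Mtmr2 and Myof, with highest adjusted p of 0.180, 0.0506, 0.0883 and 0.0886). Between 4-PBA and DMSO, log2 fold changes near 0 changed sign. With library size only Ehd2 was at 0.0024 and Pacsin3 at 0.0033. With each library left out in turn, Cav1 ran from -0.068 to 0.013, Cav2 from -0.040 to 0.014, Cavin2 from -0.042 to 0.15, Ehd2 from -0.034 to 0.020, Ehd1 from -0.10 to 0.015, Pacsin2 from -0.033 to 0.046 and Pacsin3 from -0.037 to 0.026, each range set by DMSO replicates 1 and 2. Without 4-PBA replicate 1, Cav2 was at 0.014, Ehd4 at -0.0021 (0.055 without 4-PBA replicate 2) and Pacsin2 at -0.00077, and without 4-PBA replicate 2, Ehd2 was at 0.00050 and Dnm2 at 0.0067. The cause was not tested.

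At an adjusted p under 0.01, 5 companions and 424 of all genes were called between 4-PBA and DMSO. With 1 library left out, 0 to 1 of the 9 genes, 3 to 11 companions and 295 to 1194 of all genes were called; a group left with 1 library is assumed to vary like the others. The share of Cav3 among caveolins at day 0, with DMSO and with 4-PBA was 0.195%, 18.5% and 19.5% by longest transcript, 0.0948%, 10.0% and 10.6% by coding length, and 0.0822%, 8.75% and 9.28% when not divided by length. The share of Cavin4 among cavins was 4.24%, 13.0% and 12% by coding length and 4.11%, 12.6% and 11.7% when not divided.

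No effect shared by libraries of the same replicate number was seen: the correlation of deviations was -0.028, -0.0031 and -0.012 for the 3 pairs of groups. Whether replicates were paired in the experiment cannot be told from these values. With a replicate block, 9, 0 and 9 of the 9 genes were called (DMSO against day 0, 4-PBA against DMSO, 4-PBA against day 0), 47, 8 and 46 companions, and 11403, 768 and 11309 of all genes. At day 0 the depth limits Cav3, with 12 and 14 counts.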
